A study of Mus musculus with 12 samples.

Results

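The genes described here are 10 components of inflammasomes and of pyroptosis, the lytic cell death that follows inflammasome activation, in RAW264.7 cells: Nlrp3, Aim2, Nlrc4, Pycard, Nek7, Casp1, Casp4, Gsdmd, Txnip and P2rx7. They were taken by symbol, with no threshold on their values, from a table of 31801 entries, and each symbol had 1 entry. In GENCODE M21 (GRCm38) they lie at chr11:59541568-59566956 (Nlrp3, plus strand), chr1:173350879-173466040 (Aim2, plus), chr17:74425438-74459142 (Nlrc4, minus), chr7:127989708-127993867 (Pycard, minus), chr1:138482875-138620141 (Nek7, minus), chr15:75862327-75867408 (Gsdmd, plus), chr3:96557957-96561883 (Txnip, plus) and chr5:122643911-122691432 (P2rx7, plus), with Casp1 and Casp4 given further on. RAW264.7 is a mouse macrophage-like line that arose from a tumour induced with Abelson murine leukaemia virus. RNA was sequenced in 4 groups of 3 libraries, all of wild-type RAW264.7 cells. The first received lipopolysaccharide, the bacterial cell-wall ligand of TLR4, at 50 ng/ml together with an antibody against the scavenger receptor CD36 diluted 1 in 100 (LPS+Anti-CD36). The others received LPS at 50 ng/ml alone (LPS), the antibody at 1 in 100 alone (Anti-CD36), or neither (untreated). All results come from 1 line, the length of treatment is not given in the sources used here, and none of the 12 libraries is labelled as treated with a control antibody. Nothing in the labels states that replicates are independent cultures, and p-values here therefore describe variation among the sequenced libraries, part of which may be technical.

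Inflammasomes are cytosolic complexes in which a sensor (NLRP3, AIM2 or NLRC4) recruits caspase-1, in most cases through the adaptor ASC, the product of Pycard. NLRP3 in macrophages works in steps: a priming signal such as LPS raises the messenger RNA of the sensor and of interleukin-1 beta, and a trigger such as potassium efflux through the ATP-gated channel P2RX7 then lets NLRP3 assemble with the kinase NEK7. Caspase-1 cleaves interleukin-1 beta and interleukin-18, and both caspase-1 and caspase-11 (encoded by mouse Casp4), which binds cytosolic LPS, cleave gasdermin D (Gsdmd) into a pore-forming fragment. TXNIP binds and inhibits thioredoxin and has been described as a partner of NLRP3. CD36 has been linked to NLRP3 through its uptake of crystals and oxidised lipid. These roles concern proteins, while the measurements here are of messenger RNA and say nothing of cleavage, assembly or secretion.

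Start-site sequences are shown for the sensor and the caspase that changed most with LPS and for the gene that differed between LPS+Anti-CD36 and LPS. They are RefSeq windows (GRCm38.p6) from 250 bases before to 50 bases after an annotated start, all on the plus strand: chr11:59541319-59541618 for Nlrp3, chr9:5308599-5308898 for Casp4 and chr3:96557707-96558006 for Txnip. Capitals mark matches to the motifs searched on both strands.
Nlrp3: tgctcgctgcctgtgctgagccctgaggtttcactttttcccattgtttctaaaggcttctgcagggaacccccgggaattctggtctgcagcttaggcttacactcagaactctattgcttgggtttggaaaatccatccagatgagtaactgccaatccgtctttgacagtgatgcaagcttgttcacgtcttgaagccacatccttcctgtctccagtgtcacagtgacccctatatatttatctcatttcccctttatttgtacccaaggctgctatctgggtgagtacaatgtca
Casp4: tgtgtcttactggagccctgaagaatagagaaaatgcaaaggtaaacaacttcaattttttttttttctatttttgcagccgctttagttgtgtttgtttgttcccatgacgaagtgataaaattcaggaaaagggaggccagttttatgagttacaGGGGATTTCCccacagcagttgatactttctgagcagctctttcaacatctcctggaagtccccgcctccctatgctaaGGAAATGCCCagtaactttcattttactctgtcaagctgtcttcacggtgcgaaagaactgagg
Txnip: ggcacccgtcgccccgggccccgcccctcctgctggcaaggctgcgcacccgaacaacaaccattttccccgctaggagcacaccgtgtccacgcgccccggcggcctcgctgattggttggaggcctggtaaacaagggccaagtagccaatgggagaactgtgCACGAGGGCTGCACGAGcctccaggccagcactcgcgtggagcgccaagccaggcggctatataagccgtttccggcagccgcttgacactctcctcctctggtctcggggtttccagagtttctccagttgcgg
The NF-kB-like motif, GGG and TTTCC around any 2 bases, stood at positions −93 and −14 from the start of Casp4, the second time as its reverse complement, and occurred in 1.63% of the 32851 windows of the table. Among the members it was found only in the 2 overlapping Casp4 windows. The capitals in Txnip are a pair of E-box-like elements, CACGAG repeated after any 5 bases, beginning at position −85 and found in 1 window of the table (0.00304%). This pattern was searched after the Txnip sequence had been seen, and resembles the carbohydrate response element through which MondoA and ChREBP with their partner MLX are known to control Txnip. The canonical E-box CACGTG (7.15% of windows) occurred among the members in Casp1 alone, at position −137. The ISRE-like motif, GAAA repeated after any 2 bases (3.44%), and the GAS-like TTCNNNGAA (8.3%) occurred in none of the members' windows. Gsdmd has no window in the table.

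The deposited values are FPKM, fragments per kilobase of gene model scaled to library depth, computed by the authors. Depth was recovered from the steps between low values and ran from 15035225 to 27068905 read pairs per library, reading the smallest step as a single read of a pair. Tests covered the 10276 genes with 1 FPKM or more in 3 or more libraries, and 8 of the 10 members were among them. Of 10 macrophage markers, 9 were expressed in every library, among them Lyz2 (2675 to 4449 FPKM) and Csf1r (139.5 to 241.7 FPKM), while Mertk stayed between 0 and 0.0459 FPKM. Markers of T cells, B cells, neutrophils, fibroblasts, epithelium, endothelium and erythroid cells stayed at or below 0.547 FPKM, and the 4 epithelial ones were at 0 in all libraries. Cd36 itself had 10.4, 10.9 and 12.3 FPKM in LPS+Anti-CD36 libraries, 4.40, 5.85 and 7.33 in LPS, 0.411, 0.471 and 0.256 in Anti-CD36 and 0.123, 0.195 and 0.193 in untreated libraries. Within groups, LPS replicate 1 was least like its fellows, with a mean Pearson correlation of 0.977 across genes against 0.982 to 0.996 for the other 11 libraries.

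Ordered by level per length, the members spanned Txnip at the top to Pycard at the bottom in every group. In LPS+Anti-CD36 libraries the order of group means was Txnip (80.9 FPKM), Gsdmd (56.7), Nlrp3 (46.7), Aim2 (23.5), Casp1 (16.4), Casp4 (7.47), Nek7 (7.44), P2rx7 (2.10), Nlrc4 (0.402) and Pycard. Casp4 and Nek7 overlapped there, and every other pair of neighbours was separated in all 3 libraries. In untreated libraries it was Txnip (92.9 FPKM), Gsdmd (35.3), Aim2 (23.9), Nek7 (14.9), Nlrp3 (12.0), Casp1 (8.88), P2rx7 (4.59), Casp4 (1.63), Nlrc4 (0.576) and Pycard, and only Nek7 and Nlrp3 had overlapping ranges. The order in LPS libraries was that of LPS+Anti-CD36 with Nek7 above Casp4, and there the ranges of Gsdmd and Nlrp3 and of Nek7 and Casp4 overlapped, although the higher mean led in all 3 libraries. The order in Anti-CD36 libraries was that of untreated ones, again with an overlap of Nek7 and Nlrp3. Nlrp3 ranked 3 of 10 in both groups given LPS and 5 of 10 in both groups without it, and Casp4 stood above P2rx7 only with LPS.

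**Figure D1:**
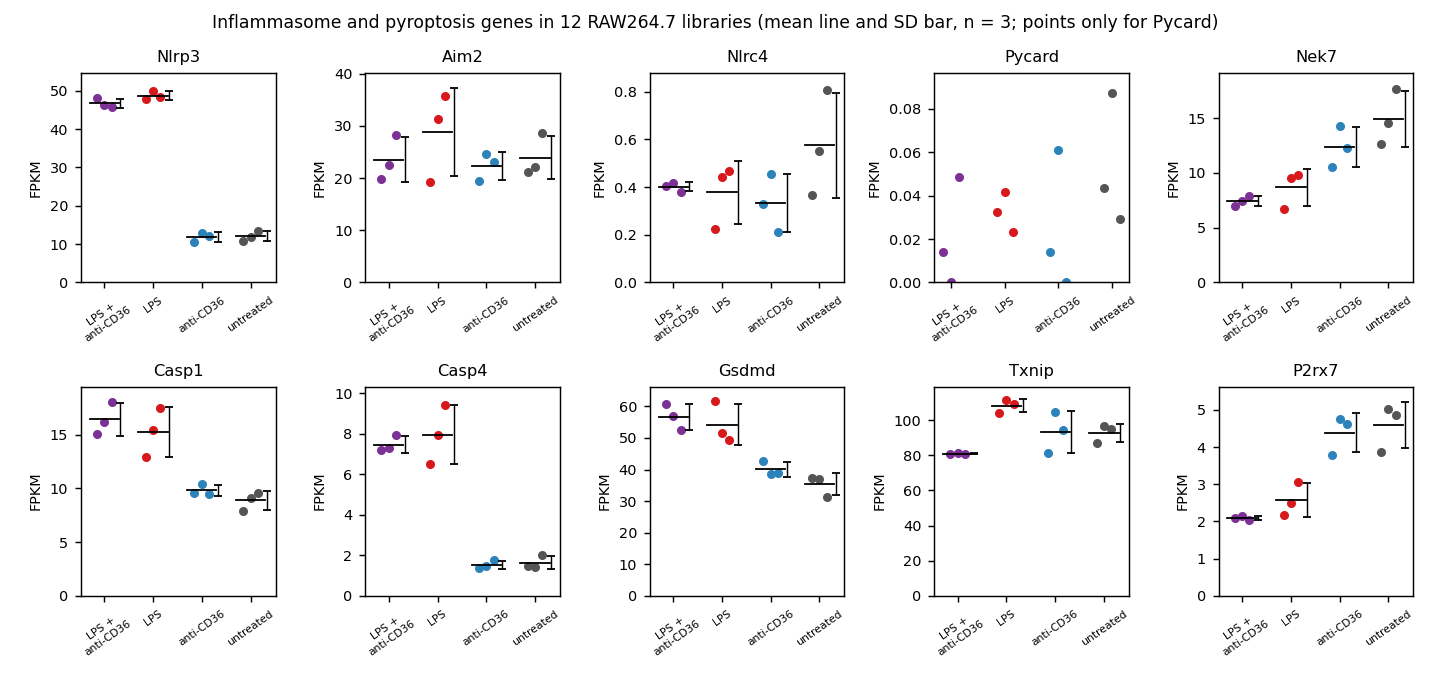
FPKM of each of the 10 genes (y axes from 0, scaled per gene) in every library, by group (x axis); points are libraries, lines are means and bars are SD (n = 3), left out for Pycard because of libraries at 0. Nlrp3 and Casp4 separate into high values with LPS and low values without it, Nek7 and P2rx7 do the reverse, and Txnip in LPS+Anti-CD36 lies below LPS.

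The sensor Nlrp3 was high in every library given LPS. It had 48.1, 46.3 and 45.8 FPKM in LPS+Anti-CD36, 48.0, 50.0 and 48.3 in LPS, 10.4, 13.0 and 12.2 in Anti-CD36 and 10.8, 11.9 and 13.4 FPKM in untreated libraries. The 6 libraries with LPS lay between 45.8 and 50.0 FPKM and the 6 without it between 10.4 and 13.4, with no overlap. Nlrp3 averaged 48.8 ± 1.08 FPKM in LPS and 12.0 ± 1.27 FPKM in untreated libraries (SD, n = 3 each), a ratio of 4.05. On the log2(FPKM + 1) scale the change was 1.94 ± 0.09 (SE), with an adjusted p of 1.10e-08 in limma, adjusted by Benjamini-Hochberg over all genes tested. In bulk RNA, a change in the number of cells that express a gene and a change in its RNA per cell cannot be told apart, here or in the results that follow.

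Aim2, the sensor of cytosolic double-stranded DNA, showed no change that passed the test. It had 19.7, 22.6 and 28.2 FPKM in LPS+Anti-CD36, 19.3, 31.3 and 35.7 in LPS, 19.4, 24.5 and 23.1 in Anti-CD36 and 21.1, 22.1 and 28.6 FPKM in untreated libraries. The 4 groups overlapped, and LPS spread most widely, with its replicate 1 lowest. The LPS change was 0.23 (95% interval −0.23 to 0.68, adjusted p = 0.400, limma). Without LPS replicate 1 it was 0.48 with an adjusted p of 0.0287, and LPS+Anti-CD36 then differed from LPS by −0.51 (adjusted p = 0.0330), against −0.25 (adjusted p = 0.403) with all libraries. The call for Aim2 changed with that 1 library in both comparisons.

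Nlrc4, the sensor that works with NAIP proteins on flagellin and secretion needles, and Pycard, which encodes ASC, did not reach 1 FPKM in any library and were not among the genes tested. Nlrc4 lay between 0.212 and 0.806 FPKM, from 31 to 140 counting units (single reads) per library, and the groups overlapped. Pycard had 0 to 10 units per library, 55 in all 12, and was at 0 in 2 libraries. Pycard was listed at 0.0143, 0 and 0.0487 FPKM in LPS+Anti-CD36, 0.0326, 0.0417 and 0.0233 in LPS, 0.0139, 0.0611 and 0 in Anti-CD36 and 0.0437, 0.0875 and 0.0291 FPKM in untreated libraries. Summed over a group these were 11 units in LPS+Anti-CD36, 12 in LPS, 9 in Anti-CD36 and 23 in untreated libraries, and the groups overlapped. RAW264.7 cells are known from earlier work to lack ASC. With every entry above 0 tested, neither gene was called in any comparison.

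Nek7, the kinase that binds NLRP3, was lower in every library with LPS than in any without it. It had 6.99, 7.42 and 7.93 FPKM in LPS+Anti-CD36, 6.69, 9.50 and 9.83 in LPS, 10.6, 14.3 and 12.3 in Anti-CD36 and 12.6, 14.5 and 17.6 FPKM in untreated libraries. The highest value with LPS, 9.83, was below the lowest without it, 10.6. Nek7 fell by 0.72 ± 0.15 on the log2 scale with LPS (ratio 0.581, adjusted p = 0.00198, limma). The ratio of Nlrp3 to Nek7 within a library, both per length, was 6.30 ± 0.558 in LPS+Anti-CD36, 5.78 ± 1.22 in LPS, 0.965 ± 0.0474 in Anti-CD36 and 0.813 ± 0.0511 in untreated libraries (SD, n = 3 each). It was at most 0.996 in the 6 libraries without LPS and at least 4.92 in the 6 with it.

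The caspase genes Casp1 and Casp4 are neighbours on chromosome 9, at chr9:5298517-5307265 and chr9:5308828-5336783 on the plus strand (GENCODE M21, GRCm38). Casp4 changed more. It had 7.19, 7.28 and 7.94 FPKM in LPS+Anti-CD36, 6.49, 7.95 and 9.44 in LPS, 1.39, 1.45 and 1.74 in Anti-CD36 and 1.48, 1.40 and 2.00 FPKM in untreated libraries. Every value with LPS was at least 6.49 FPKM and every value without it was at most 2.00. Its LPS change was 1.76 ± 0.12 (adjusted p = 3.08e-07, limma), with group means in a ratio of 4.90.

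Casp1 had 15.0, 16.2 and 18.0 FPKM in LPS+Anti-CD36, 12.9, 15.4 and 17.5 in LPS, 9.53, 10.4 and 9.50 in Anti-CD36 and 7.89, 9.13 and 9.61 FPKM in untreated libraries. The libraries with and without LPS did not overlap, but the step was smaller than for Casp4: 0.71 ± 0.11 (ratio 1.72, adjusted p = 0.000244, limma). Casp1 stood at 2.20 ± 0.0938 times Casp4 in LPS+Anti-CD36, 1.93 ± 0.0669 times in LPS, 6.49 ± 0.912 times in Anti-CD36 and 5.56 ± 0.884 times in untreated libraries (SD, n = 3 each). Its values were not whole reads at the annotated length of 1497 bases, so the length behind its FPKM was not that one, which bears on its level against other genes but not on its ratios between libraries.

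Gsdmd, the executioner of pyroptosis, was among the more abundant members in all groups. It had 60.6, 57.1 and 52.4 FPKM in LPS+Anti-CD36, 61.6, 51.6 and 49.4 in LPS, 42.8, 38.5 and 38.8 in Anti-CD36 and 37.4, 37.1 and 31.3 FPKM in untreated libraries. Libraries with LPS all lay above those without it. The LPS change was 0.60 ± 0.11 (ratio 1.54, adjusted p = 0.000528, limma), the smallest of the members that rose. In each of the 4 groups replicate 1 had the most Gsdmd and the least Nek7. Gsdmd is the member with the highest exonic GC content (54.4%), while Nek7 has 40.4% and Casp4 the lowest, 38.1%. Whether GC content bears on the values of replicate 1 was not tested. The LPS changes of Gsdmd and Nek7 stayed past the threshold with the GC and length trend of each library removed.

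P2rx7, the ATP-gated channel, fell with LPS. It had 2.10, 2.14 and 2.05 FPKM in LPS+Anti-CD36, 2.18, 2.49 and 3.06 in LPS, 3.80, 4.76 and 4.61 in Anti-CD36 and 3.88, 5.02 and 4.85 FPKM in untreated libraries. All libraries with LPS were below all those without it, and the 3 of LPS+Anti-CD36 were also below the 3 of LPS. The LPS change was −0.64 ± 0.11 (ratio 0.562, adjusted p = 0.000537, limma). Between LPS+Anti-CD36 and LPS the difference of −0.20 (95% interval −0.45 to 0.05) had an adjusted p of 0.226, and 36.1% of all genes tested had groups that did not overlap in that comparison.

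Txnip was the most abundant member and the one that differed between LPS+Anti-CD36 and LPS. It had 80.9, 81.0 and 80.6 FPKM in LPS+Anti-CD36, 104, 111 and 109 in LPS, 81.0, 104 and 94.3 in Anti-CD36 and 87.0, 96.5 and 95.2 FPKM in untreated libraries. The 3 LPS+Anti-CD36 values were close to each other and below every other library, though hardly below Anti-CD36 replicate 1, while the LPS values overlapped with Anti-CD36 and lay above the untreated ones. Txnip averaged 80.9 FPKM in LPS+Anti-CD36 and 108 FPKM in LPS libraries, a ratio of 0.747. The difference was −0.42 ± 0.09 on the log2 scale (95% interval −0.62 to −0.21, adjusted p = 0.0136, limma). It kept its size but not its call without LPS+Anti-CD36 replicate 1 (−0.42, adjusted p = 0.0527), without LPS+Anti-CD36 replicate 2 (−0.42, adjusted p = 0.0567) and without LPS replicate 2 (−0.39, adjusted p = 0.0641). The antisense gene Gm15441 shares 606 exonic bases with Txnip, 19.4% of its exons, and lay between 0.158 and 0.440 FPKM, with means of 0.176 in LPS+Anti-CD36, 0.332 in LPS, 0.351 in Anti-CD36 and 0.375 FPKM in untreated libraries. Whether reads were counted by strand is not given in the sources used here.

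Set side by side, LPS against untreated called 6 of the 8 tested members, against 49.8% of all 10276 genes. Nlrp3, Casp4, Casp1 and Gsdmd rose (4 of 8, against 16.6% of all genes called higher) and Nek7 and P2rx7 fell (2 of 8, against 33.1% called lower). Groups did not overlap for 49.6% of all genes in this comparison (16.7% higher, 32.9% lower) and for 7 of the 8 members. The median change was 0.41 over the 8 members and −0.14 over all genes. Aim2 was not called, nor was Txnip, with 0.22 (95% interval 0.02 to 0.42, adjusted p = 0.0692). Over 22 other settings the Txnip change ran from 0.17 to 0.37 and passed the threshold in 6, among them those without Anti-CD36 replicate 1 (adjusted p = 0.0293) and without Anti-CD36 replicate 2 (adjusted p = 0.0468).

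LPS+Anti-CD36 against Anti-CD36 called the same 6 genes in the same directions, against 47.5% of all genes. The groups compared share no library with those of LPS against untreated cells. Both comparisons come from the same fit with a common estimate of spread, so their p-values are not independent. Groups did not overlap for 63.9% of all genes (21.6% higher, 42.3% lower). Of the 6 called, 4 rose (16.3% of all genes called higher) and 2 fell (31.3% called lower). Nlrp3 changed by 1.89 ± 0.09, Casp4 by 1.75 ± 0.12, Casp1 by 0.69 ± 0.11 and Gsdmd by 0.49 ± 0.11. Nek7 fell by 0.65 ± 0.15 and P2rx7 by 0.80 ± 0.11. Adjusted p ran from 1.33e-08 for Nlrp3 to 0.00403 for Nek7 (limma). Txnip, at −0.20 (adjusted p = 0.103), was not called, but was called in 4 of 22 other settings: without Anti-CD36 replicate 1 (−0.29, adjusted p = 0.0149), with the GC and length trend removed (−0.17, adjusted p = 0.0424), with a replicate block (−0.20, adjusted p = 0.0403) and with both of these (−0.17, adjusted p = 0.0168).

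**Figure D2:**
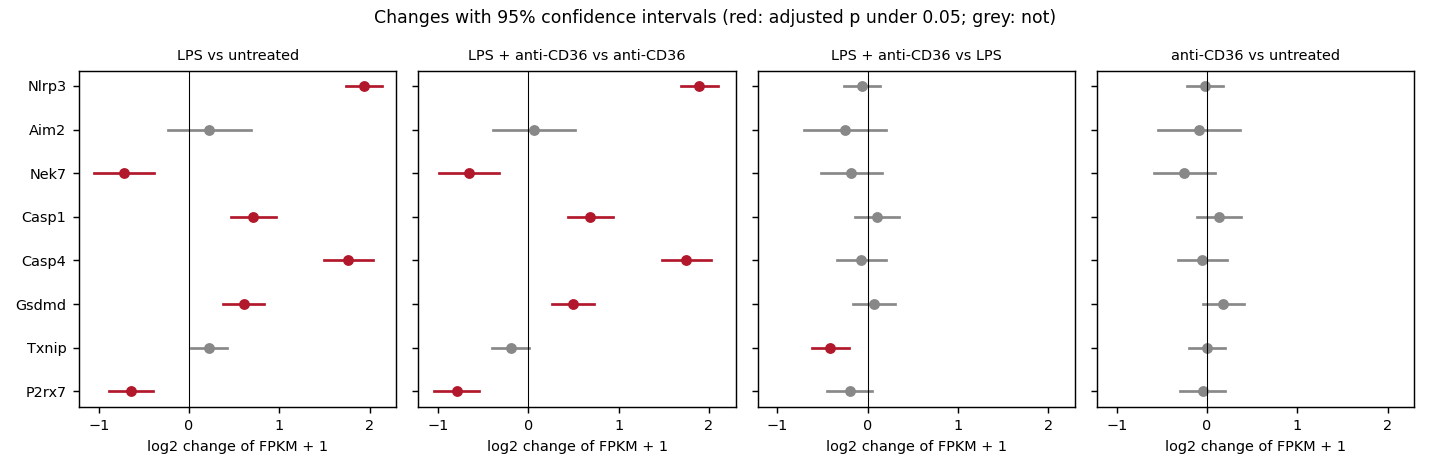
Change of the 8 tested members on the log2(FPKM + 1) scale (x axis) in the 4 comparisons (panels), with 95% intervals; red marks an adjusted p under 0.05. The same 6 genes are red in both comparisons with LPS on one side only, Txnip alone is red between LPS+Anti-CD36 and LPS, and none between Anti-CD36 and untreated cells.

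Between LPS+Anti-CD36 and LPS, 1 of the 8 members was called, near the 15.5% called of all genes (7.34% higher, 8.14% lower). That gene was Txnip. The 95% intervals of the differences that were not called all held 0, running from −0.26 to 0.14 for Nlrp3, −0.14 to 0.35 for Casp1, −0.34 to 0.20 for Casp4 and −0.16 to 0.30 for Gsdmd, on the log2 scale. For Nek7 the interval was −0.52 to 0.15 and for Aim2 −0.71 to 0.20. The call count was 2 without LPS replicate 1, which added Aim2, and 0 without LPS+Anti-CD36 replicate 1, LPS+Anti-CD36 replicate 2 or LPS replicate 2. With TPM scaling (FPKM rescaled to 1 common sum per library), the median of all genes moved by −0.10 in this comparison, 31.8% of calls were then higher against 47.4% with FPKM as deposited, and the uncalled differences of Casp1 and Gsdmd took the other sign.

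Anti-CD36 against untreated cells called 0 of the 8 members (limma), against 0.341% of all genes. None of the 8 had an unadjusted p under 0.05, against 19.2% of all genes. Changes ran from −0.25 (95% interval −0.58 to 0.08) for Nek7 to 0.18 (−0.05 to 0.41) for Gsdmd. The interaction asks whether the LPS change differed with the antibody, and limma called none of the members there, against 1.28% of all genes (0.788% lower). Txnip had the largest difference, −0.41 (95% interval −0.70 to −0.13), with an unadjusted p of 0.00850 and an adjusted p of 0.258 in limma. No other member had an unadjusted p under 0.05, a threshold that 8.6% of all genes passed. With the GC and length trend removed, the Txnip interaction was −0.46 with an adjusted p of 0.0140. For Nlrp3 the interaction was −0.04 (−0.33 to 0.24), for Casp1 −0.03 (−0.37 to 0.32) and for Casp4 −0.02 (−0.40 to 0.37).

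**Figure D3:**
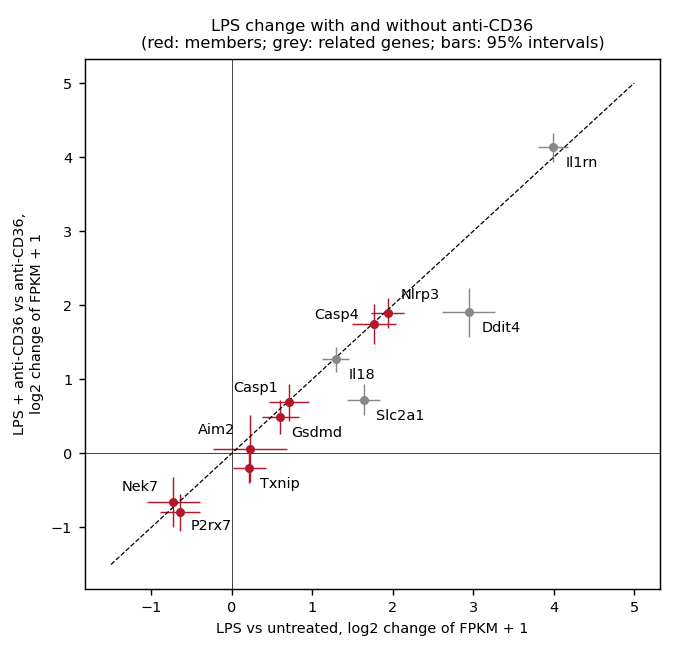
LPS change with the antibody (y axis, LPS+Anti-CD36 against Anti-CD36) against the LPS change without it (x axis, LPS against untreated), both on the log2(FPKM + 1) scale with 95% intervals; the dashed line marks equal changes. The members (red) lie along the line, with Txnip below it, and of the related genes (grey) Ddit4 and Slc2a1 lie below it.

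The interleukin-1 family cytokines Il1b and Il18, which caspase-1 processes, and Il1a were higher in LPS+Anti-CD36 than in LPS. Il1b had 576, 575 and 638 FPKM in LPS+Anti-CD36 libraries and 278, 311 and 328.5 in LPS libraries. It was near 0 in Anti-CD36 (0.110, 0.0870 and 0.172 FPKM) and in untreated libraries (0.0678, 0.0484 and 0.0290), where the second value is the exact mean of the other 2. Il1b was 1.95-fold higher in LPS+Anti-CD36 than in LPS (0.96 ± 0.08, adjusted p = 2.15e-05, limma) and Il1a 2.15-fold higher (1.12 ± 0.12, adjusted p = 0.000203). The 2 groups did not overlap for either cytokine.

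Il18, a cargo already present without LPS, had 61.2, 59.8 and 61.7 FPKM in LPS+Anti-CD36, 46.9, 46.3 and 48.2 in LPS, 23.2, 25.8 and 25.1 in Anti-CD36 and 19.7, 19.5 and 16.9 FPKM in untreated libraries. The 4 groups did not overlap. The difference between LPS+Anti-CD36 and LPS was 0.36 ± 0.08 (ratio 1.29, adjusted p = 0.0102, limma), against 0.25 (adjusted p = 0.0707) with TPM scaling and 0.35 (adjusted p = 0.0516) without LPS replicate 2, neither of which passed the threshold. Il1rn, the receptor antagonist, was also higher in LPS+Anti-CD36 than in LPS (0.50 ± 0.09, adjusted p = 0.00400). The alarmin Il33 had 1.35, 1.01 and 1.51 FPKM in LPS+Anti-CD36 and 0.364, 0.594 and 0.655 FPKM in LPS libraries, and passed the filter on low values only through the LPS+Anti-CD36 libraries, so no test is read from it. Of 9 tested genes among 13 listed cargo cytokines, receptors and decoys, LPS raised 7 and lowered 1, the alarmin Hmgb1 (−1.03 ± 0.11). Over all genes tested, LPS raised 16.6% and lowered 33.1%. Of the 9, 4 passed the filter only through libraries with LPS, and of the other 5 LPS raised 3 and lowered 1. Leaving out Il33, 4 of 8 were higher and 0 lower in LPS+Anti-CD36 than in LPS, beside 7.34% and 8.14% of all genes.

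**Figure D4:**
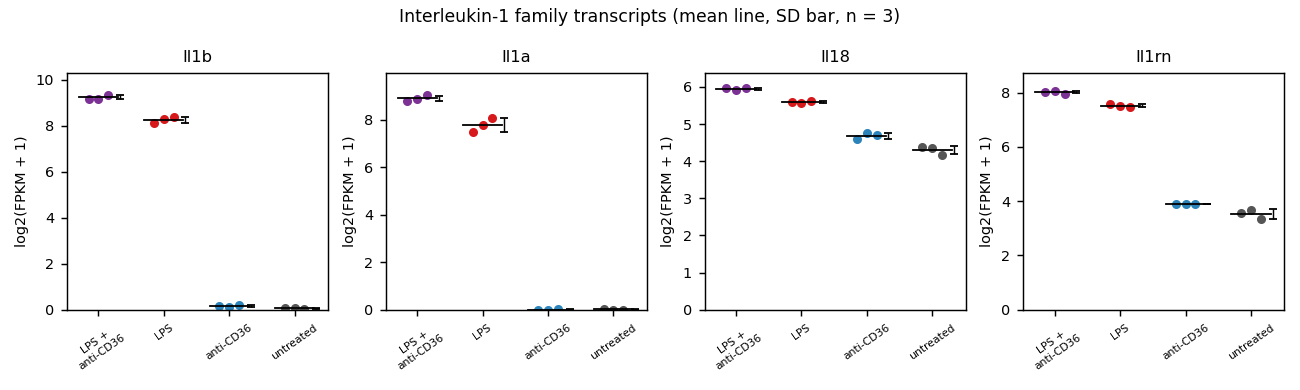
log2(FPKM + 1) of Il1b, Il1a, Il18 and Il1rn (y axes from 0) in every library, by group (x axis); points are libraries, lines means and bars SD (n = 3). In each panel the LPS+Anti-CD36 libraries lie above the LPS libraries, and Il1b and Il1a are near 0 without LPS.

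Other inflammasome sensors were listed for comparison, 12 of 18 of them tested. LPS raised 5 and lowered 2, beside 16.6% and 33.1% of all genes. The interferon-inducible DNA sensor Ifi204 rose by 4.18 ± 0.14 (ratio 24.5) and Zbp1, the nucleic acid sensor upstream of necroptosis and NLRP3, by 4.43 ± 0.15 (ratio 36.2). Ifi204 and Ifi203 belong to the same gene family, and whether reads were shared between its genes was not tested. Nlrp10 averaged 0.422 FPKM in LPS and 3.17 FPKM in untreated libraries. It passed the filter on low values only through libraries without LPS, so no test of its LPS change is read. The count of 2 lowered includes it. Between LPS+Anti-CD36 and LPS only Ifi203 was called (−0.54 ± 0.14, adjusted p = 0.0244, limma), against 15.5% of all genes. Its call was lost without any of the LPS+Anti-CD36 replicates, LPS replicate 2 or LPS replicate 3, with adjusted p up to 0.101. The call was also lost with no filter on low values, with TPM scaling and in a fit of only the groups compared.

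Among caspases, gasdermins and other death genes outside the members, 13 of 19 were tested, and the gasdermins Gsdma, Gsdma2, Gsdma3, Gsdmc and Gsdmc2 were at most 0.0398 FPKM. LPS raised 3 and lowered 4, beside 16.6% and 33.1% of all genes. Mlkl, the executioner of necroptosis, rose by 2.28 ± 0.12 (ratio 5.53), Cflar, the inhibitor of caspase-8, by 1.69 ± 0.20 and Casp8 by 0.76 ± 0.17, while Casp2 fell by 0.92 ± 0.12. Of the 13, 1 was called between LPS+Anti-CD36 and LPS, against 15.5% of all genes: Cflar (−0.67 ± 0.20, adjusted p = 0.0424, limma). That call was lost in 9 of 12 fits without 1 library, all but those without LPS replicate 1, untreated replicate 1 and untreated replicate 3, with adjusted p up to 0.160. The call was also lost with no filter on low values, with TPM scaling and in a fit of only the groups compared.

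Genes of potassium efflux, ion channels and ATP release mostly rose: of 11 tested among 15 listed, LPS raised 9 and lowered 0, beside 16.6% and 33.1% of all genes. P2ry2, a nucleotide receptor, passed the filter only through libraries with LPS, and of the other 10 LPS raised 8 and lowered 0. P2rx4, a related ATP-gated channel, rose by 0.59 ± 0.07 to a mean of 2.65 FPKM in LPS libraries, against 1.42 FPKM in untreated ones. The volume-regulated channel subunit Lrrc8d (0.58 ± 0.07) and the chloride channel Clic4 (0.61 ± 0.08) also rose. Only Kcnk6, a potassium channel, was called between LPS+Anti-CD36 and LPS (−0.31 ± 0.08, adjusted p = 0.0317, limma), against 15.5% of all genes. This call was lost without any of the LPS+Anti-CD36 replicates, LPS replicate 2, Anti-CD36 replicate 3 or untreated replicate 2, with adjusted p up to 0.126. It was also lost in a fit of only the groups compared.

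Of 17 tested partners and modifiers of NLRP3 among 21 listed, LPS raised 6 and lowered 2, beside 16.6% and 33.1% of all genes. The guanylate-binding protein Gbp2, which acts on intracellular bacteria upstream of caspase-11, had 10.2, 10.6 and 10.7 FPKM in LPS+Anti-CD36, 8.38, 12.9 and 12.3 in LPS, 0.0942, 0.145 and 0.0522 in Anti-CD36 and 0.117, 0.145 and 0.143 in untreated libraries. Gbp2 and Gbp5 passed the filter only through libraries with LPS, and of the other 15 LPS raised 4 and lowered 2. Pstpip1 rose by 1.29 ± 0.09. Gbp5 averaged 1.08 FPKM in LPS and 0.00464 FPKM in untreated libraries, and no test of its LPS change is read, given its way through the filter. Limma called 0 of the 17 between LPS+Anti-CD36 and LPS, against 15.5% of all genes, and 4 (23.5%) had an unadjusted p under 0.05, against 33.8% of all genes. In the other settings run, 0 to 4 of them were called higher and 0 to 5 lower.

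Inhibitors of inflammasomes and genes of membrane repair gave 18 tested of 20 listed, of which LPS raised 7 and lowered 5, and of which 4 were higher and 2 lower in LPS+Anti-CD36 than in LPS. Of all genes, LPS raised 16.6% and lowered 33.1%, and 7.34% were higher and 8.14% lower in LPS+Anti-CD36 than in LPS. Serpinb2 and Ifi208 passed the filter only through libraries with LPS, and of the other 16 LPS raised 5 and lowered 5. Serpinb9, a protease inhibitor, had 9.48, 8.55 and 9.80 FPKM in LPS+Anti-CD36, 3.65, 4.78 and 4.55 in LPS, 2.57, 2.79 and 2.25 in Anti-CD36 and 1.66, 1.63 and 1.79 in untreated libraries. These groups did not overlap, and the difference between LPS+Anti-CD36 and LPS was 0.95 ± 0.10 (adjusted p = 9.69e-05, limma). Serpinb2 was also higher (0.64 ± 0.09, adjusted p = 0.00138). Tnfaip3, which encodes the ubiquitin-editing enzyme A20, was lower (−0.53 ± 0.11, adjusted p = 0.00842), with 4.37, 4.35 and 4.03 FPKM in LPS+Anti-CD36 and 5.95, 6.69 and 7.12 FPKM in LPS libraries. Ifi208, a further interferon-inducible gene of the same family as Ifi204, was the other one counted as lower. It had 0.939, 0.841 and 1.04 FPKM in LPS+Anti-CD36 and 1.29, 1.54 and 1.75 FPKM in LPS libraries. Ifi208 reached 1 FPKM in every LPS library but in LPS+Anti-CD36 only in replicate 3. It thus passed the filter through the group where it was higher, and no test of this difference is read.

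Among 15 tested genes of the thioredoxin system and of TXNIP control (16 listed), 1 was higher and 3 were lower in LPS+Anti-CD36 than in LPS, and LPS itself raised 4 and lowered 6. Of all genes, 7.34% were called higher and 8.14% lower in LPS+Anti-CD36 than in LPS, and LPS raised 16.6% and lowered 33.1%. The glucose transporter gene Slc2a1, whose product TXNIP is known to hold back, had 80.5, 80.9 and 77.5 FPKM in LPS+Anti-CD36, 172, 147 and 135 in LPS, 47.0, 47.1 and 49.2 in Anti-CD36 and 47.6, 51.5 and 44.3 FPKM in untreated libraries. LPS+Anti-CD36 lay between LPS and the other groups without overlap, at −0.91 ± 0.09 from LPS (ratio 0.525, adjusted p = 0.000107, limma). Ddit4, which encodes the mTOR inhibitor REDD1, had 27.7, 22.9 and 20.2 FPKM in LPS+Anti-CD36, 67.4, 53.0 and 48.3 in LPS, 6.60, 4.75 and 5.35 in Anti-CD36 and 6.64, 6.84 and 5.65 in untreated libraries, a difference of −1.21 ± 0.15 between LPS+Anti-CD36 and LPS (ratio 0.420, adjusted p = 0.000431). So Slc2a1 and Ddit4 were below LPS but above untreated levels in LPS+Anti-CD36, whereas Txnip values in LPS+Anti-CD36 were below those of both groups.

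Arrdc3, an arrestin-domain relative of Txnip, was also lower (−0.61 ± 0.13, adjusted p = 0.0124, limma), a call lost without LPS+Anti-CD36 replicate 1 or 2 and without LPS replicate 2 or 3, with adjusted p up to 0.0605. Arrdc4, a close relative of Txnip known to share its carbohydrate control, had 0.901 FPKM in LPS+Anti-CD36 and 0.855 FPKM in LPS libraries and was not called (adjusted p = 0.748). Txn1, the thioredoxin that TXNIP binds, averaged 480.1 ± 41.3 FPKM in LPS+Anti-CD36 and 346 ± 41.7 FPKM in LPS libraries (SD, n = 3 each), a rise of 0.47 ± 0.11 (adjusted p = 0.0166), while LPS lowered it relative to untreated cells (−0.30 ± 0.11, adjusted p = 0.0385).

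**Figure D5:**
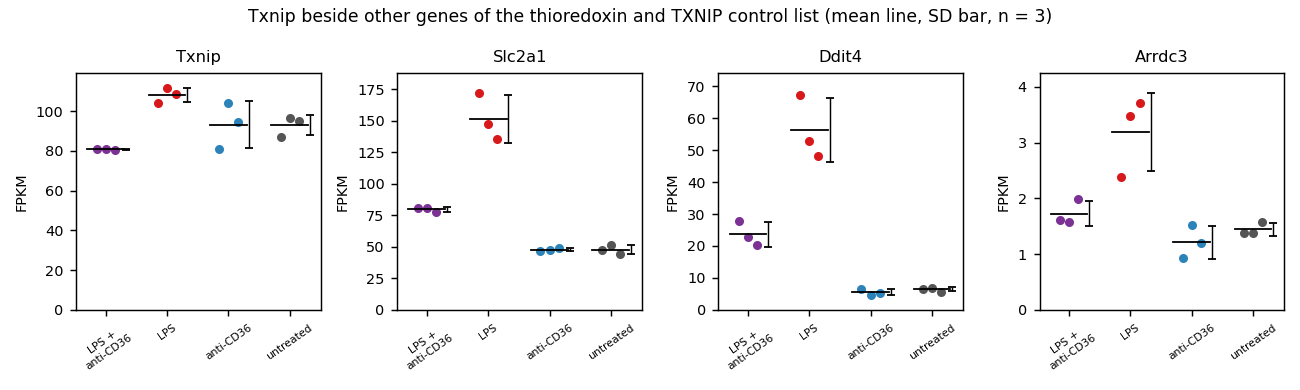
FPKM of Txnip, Slc2a1, Ddit4 and Arrdc3 (y axes from 0) in every library, by group (x axis); points are libraries, lines means and bars SD (n = 3). All 4 genes are lower in LPS+Anti-CD36 than in LPS, and Txnip differs from the others in that LPS alone lies close to the untreated level.

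For the priming input, 22 of 23 listed receptors, adaptors and transcription factors were tested. LPS raised 9 of them and lowered 6, beside 16.6% and 33.1% of all genes. Nfkb2, a subunit of the non-canonical NF-kB pathway, had 34.4, 32.4 and 30.0 FPKM in LPS+Anti-CD36, 22.5, 18.9 and 18.1 in LPS, 7.01, 5.96 and 6.98 in Anti-CD36 and 6.13, 6.66 and 5.19 in untreated libraries. It was higher in LPS+Anti-CD36 than in LPS (0.68 ± 0.11, adjusted p = 0.00214, limma). Irf8 (2.07 ± 0.10) and Stat2 (1.53 ± 0.08), transcription factors of the interferon response, rose with LPS. Tlr4, the LPS receptor, was lower in LPS+Anti-CD36 than in LPS (−0.68 ± 0.17, adjusted p = 0.0228), a call lost without LPS+Anti-CD36 replicate 1 or 2 and without LPS replicate 2 or 3, with adjusted p up to 0.0973. The Tlr4 call was also lost with no filter on low values and in a fit of only the groups compared. Stat2 was lower too (−0.29 ± 0.08, adjusted p = 0.0361), a call lost without any LPS+Anti-CD36 replicate, LPS replicate 2 or 3, or Anti-CD36 replicate 3, with adjusted p up to 0.138. The Stat2 call was also lost with TPM scaling and in a fit of only the groups compared. In these 8 lists limma called 0 of 116 tested genes between Anti-CD36 and untreated cells, against 0.341% of all genes, and 23 (19.8%) had an unadjusted p under 0.05, against 19.2% of all genes. In the other settings run, up to 3 genes of a list were called higher and up to 2 lower. The lists overlap in part, since Ripk1 stands in a pair of them.

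Among 7234 genes with a group mean of at least 5 FPKM, those whose log2 values over the 12 libraries were most like Nlrp3 were Pou2f2, Lamc1 and Pik3ap1 (Pearson r = 0.997 each), and those most like Casp4 were Msr1 (0.997), Plek and Ifit3 (0.996 each). For Gsdmd they were Ube2l6 (0.993), Jund and Bst2, and for Nek7 Srsf10 (0.997), Aebp2 and Dpy19l1. The nearest to Casp1 was Sp140 (0.987), followed by Pid1 (0.986) and Ifrd1 (0.984), and to P2rx7 Eif4enif1 (0.988), Gnptab (0.985) and Tmem144 (0.982). Genes near to Aim2 were Snx2 (0.967) and Ccdc25 (0.964). The nearest to Txnip were Soat1 (0.955), Adm (0.933) and Car12 (0.903). These are descriptions over libraries that share the split between LPS and no LPS.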

How the data were processed

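One table of FPKM values, computed and deposited by the authors, was used, with 1 column for each of the 12 libraries. The submitters' processing notes name HISAT2 2.0.5, and list the builds mm39 and hg38 without roles, while the counting tool and annotation are not given in the sources used here. Coordinates, lengths and GC content come from GENCODE M21 and RefSeq, both GRCm38, and were matched by symbol only. Groups follow the treatment label.

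The members and gene lists were chosen with earlier results of these data known. Where a symbol was repeated, only its most abundant entry was used, and 82 others were dropped. Il6 was left out because its values without LPS equal those of another entry. Low values (under 20 steps) were whole multiples of a step, within 0.02 steps, in 93.0% to 94.3% of entries per library. Even multiples outnumbered odd ones (699 to 815 entries at 2 steps against 289 to 437 at 1 step), so a step was read as 1 read of a pair, which no label states. For Casp1 a length of 3136 bases, among 3 that made its values whole, was used for read numbers.

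Values were analysed as log2(FPKM + 1), which understates changes of low genes, for 10276 genes (1 FPKM or more in 3 or more libraries). One limma 3.58.1 model (R 4.3.3) of the 4 group means with an intensity trend gave 4 comparisons and the interaction, with Benjamini-Hochberg adjustment over all genes and a threshold of 0.05. The fit was run on simulated data with noise drawn separately for each gene and library. That run held no deviation shared by libraries of the same number, and no result is read from it. Named genes were the members, Il1b, Il1a, Il18, Cd36, and per list up to 3 called genes of smallest p in LPS against untreated and in LPS+Anti-CD36 against LPS, plus any called in the other tests. Genes named beyond these were chosen after their values were seen: P2ry2, Hmgb1, Casp8, Txn1, Arrdc4 and the gasdermins at or near 0. Pydc3 and Pydc4 were matched as Ifi208 and Ifi213 by RefSeq synonyms, and Irgb10 was not matched. Tables were made with Python 3.11.15, numpy 2.4.6, pandas 2.3.3 and matplotlib 3.10.9. Alternatives were another pseudocount, 2 filters, 2 scalings, a GC and length correction, a replicate block, other moderation and leaving out each library.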

Additional observations from a re-analysis of the deposited data

Results flagged for a closer look

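The interaction term in limma was called for 5 related genes and for no member. On the log2(FPKM + 1) scale the difference was 0.86 for Il1b (adjusted p = 0.00212) and 1.12 for Il1a (adjusted p = 0.00743), 0.63 for Serpinb2 (adjusted p = 0.0446), −1.04 for Ddit4 (adjusted p = 0.0374) and −0.91 for Slc2a1 (adjusted p = 0.00424). Il1b, Il1a and Serpinb2 passed the filter only through libraries with LPS and were near 0 without it. Their interactions therefore largely repeat the differences between LPS+Anti-CD36 and LPS (0.96, 1.12 and 0.64). For these genes no difference in the fold change with LPS is read from the interaction. Slc2a1 stayed past the threshold in all 21 alternatives run. Il1b did not with a pseudocount of 0.1 or with TPM scaling (adjusted p = 0.693 and 0.156), nor Il1a with TPM scaling (adjusted p = 0.0710), and Ddit4 and Serpinb2 lost the call in 11 of 21 and 13 of 20 alternatives. Among fits without 1 library, Ddit4 kept it only without LPS+Anti-CD36 replicate 1, LPS replicate 1, LPS replicate 3 or Anti-CD36 replicate 2 (adjusted p up to 0.113 in the rest), and Serpinb2 only without LPS replicate 3 (up to 0.142 in the rest).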

How the results depend on the processing

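The 6 members called for LPS in both comparisons kept their direction and call in every alternative run, apart from P2rx7 at the filter of 5 FPKM, where it was not tested. Leaving out single libraries, LPS against untreated called 4302 to 5459 genes and 6 to 7 members, LPS+Anti-CD36 against Anti-CD36 4024 to 5447 and 6 to 7, LPS+Anti-CD36 against LPS 582 to 3977 (1590 with all libraries) and 0 to 2, Anti-CD36 against untreated 1 to 131 (35) and 0 to 0, and the interaction 77 to 161 (132) and 0 to 0. Without LPS replicate 1 the counts were 3977 for LPS+Anti-CD36 against LPS and 131 for Anti-CD36 against untreated; without LPS replicate 2 they were 582 and 7. The first count was 639, 590 and 848 without LPS+Anti-CD36 replicates 1, 2 and 3 and 743 without LPS replicate 3, and the second was 1 without Anti-CD36 replicate 3, untreated replicate 2 or untreated replicate 3, 5 and 18 without Anti-CD36 replicates 1 and 2, and 7, 7 and 8 without LPS+Anti-CD36 replicates 1, 2 and 3. The interaction count was 77 to 83 without any LPS+Anti-CD36 replicate, LPS replicate 2, Anti-CD36 replicate 3 or untreated replicate 2. In the order Anti-CD36 against untreated, LPS+Anti-CD36 against LPS and interaction, removal of the GC and length trend gave 430, 2509 and 402 calls, a replicate block 1164, 3645 and 212, and both together 997, 3635 and 559, and the correction called 1 member, Txnip, in the interaction with and without the block. Fitting only the groups compared gave 0 and 939 calls in the first 2 of these, TPM scaling gave 18 in the first, and the filter of 5 FPKM gave 85 in the interaction. The cause was not tested. Libraries numbered 1 deviated together in every pair of groups, and those numbered 2 and 3 only in some. Deviations from group means correlated by more than 0.1 in 6 of 6 pairs for replicate 1, 1 of 6 for replicate 2 and 3 of 6 for replicate 3. The labels do not say that a replicate number marks a shared culture or day. The numbers were therefore not taken as pairs, and the main fit leaves such shared deviations in its spread.

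Small differences that were not called changed sign. Between Anti-CD36 and untreated cells, Nlrp3 was 0.011 and Txnip 0.032 with median-of-ratios scaling, and Casp4 was 0.085, P2rx7 0.0011 and Il1a 0.0099 with GC and length removed, with or without the replicate block. Between LPS+Anti-CD36 and LPS, Casp1 was −0.0015 and Gsdmd −0.044 with TPM scaling, and Casp4 was 0.026, Gsdmd −0.12 and Nek7 0.043 with GC and length removed, with or without the replicate block. Leaving out single libraries, differences between Anti-CD36 and untreated cells ran from −0.086 to 0.064 for Nlrp3, −0.11 to 0.049 for Casp4, −0.17 to 0.040 for Aim2, −0.085 to 0.095 for Txnip, −0.14 to 0.032 for P2rx7 and −0.013 to 0.0079 for Il1a. Between LPS+Anti-CD36 and LPS they ran from −0.0038 to 0.20 for Casp1 and −0.19 to 0.048 for Casp4, and between LPS+Anti-CD36 and Anti-CD36 from −0.071 to 0.18 for Aim2. The interaction ran from −0.12 to 0.026 for Nlrp3, −0.14 to 0.071 for Casp1, −0.14 to 0.098 for Casp4, −0.42 to 0.0098 for Aim2, −0.088 to 0.18 for Nek7 and −0.065 to 0.045 for Il18. Median-of-ratios scaling moved the median of all genes by 0.13 in LPS against untreated and by 0.12 in LPS+Anti-CD36 against Anti-CD36, and 50.8% and 50.5% of calls were then higher, against 33.4% and 34.2%. Higher calls made up 42.9% between Anti-CD36 and untreated cells and 38.6% in the interaction, against 61.1% and 27.5% with TPM scaling and, in the first, 32.4% with median-of-ratios scaling. Over the alternatives LPS against untreated raised 6 to 9 of the 11 channel genes.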
